A study of Homo sapiens with 12 samples.

Results

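SPP1 and BASP1 are 2 genes whose transcripts carried, at the 3′ end of the gene, an interval at or above a deposited score of 3100 in each of 6 MeRIP-seq peak lists. In MeRIP-seq, RNA fragments bearing N6-methyladenosine (m6A) are pulled down with an antibody and compared with input RNA. The genes were chosen by that score, looked for anywhere in the gene span. Their members are all intervals that share at least 1 bp with the hg19 gene span on the plus strand, which is chromosome 4 from 88896819 to 88904563 for SPP1 and chromosome 5 from 17217669 to 17276954 for BASP1. There were 25 such intervals of 53502 in all lists. Joined over lists, they formed 5 regions of 20742.

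H460, the cell line studied, is an established line from a human large cell carcinoma of the lung. Its genotype is given as wild-type, and it was grown in DMEM with fetal bovine serum. The 12 libraries fall into 4 groups of 3, which are inputs and immunoprecipitates (IPs) of cells without treatment and inputs and IPs of cells given 100 nM rapamycin, an mTORC1 inhibitor, for 24 h to induce autophagy. The GEO record ties all 6 peak lists to untreated samples, namely list A to input 1, B to IP 1, C to input 2, D to IP 2, E to input 3 and F to IP 3. The deposited names do not match this, since they hold "con" for A, B and C but "rapamycin" for D, E and F. No list was therefore assigned to an arm, rapamycin was not compared with no treatment, and every value is given list by list, with no replicate and no test. Nothing in the labels says whether replicates were separate cultures.

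The lists held from 4530 intervals (E) to 14908 (B). The score is one value per interval as the authors deposited it. Neither its scale nor the depth behind it is given in the sources used here, so scores are printed as deposited, are ranked only within a list and otherwise serve as a common minimum of 3100. A lower raw score in one list than in another does not show a weaker peak. Values pile up at 3100. In each list 3 to 71 intervals scored higher, the lowest of them at 3101.13 to 3133.52, and the highest score below 3100 was 3078.66 to 3099.99.

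SPP1 encodes osteopontin, a secreted phosphoprotein of the extracellular matrix that binds integrins and CD44 and is often abundant in carcinomas, those of the lung included. BASP1 encodes a myristoylated protein of the inner face of the plasma membrane, abundant in growing axons and related in behaviour to GAP43 and MARCKS, and it also acts in the nucleus as a co-repressor of WT1. The m6A mark is written mainly by the METTL3 and METTL14 complex, removed by FTO and ALKBH5 and read by YTH proteins, and in mRNA it is typically dense in long exons, near the stop codon and in last exons. As background on gene structure, the coding sequence of BASP1 lies in its last exon, and the last exon of SPP1 holds a large part of its coding sequence. Antibodies against m6A also bind m6Am, a related mark next to the mRNA cap. How much of any interval here comes from that mark was not tested.

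The 3′ interval of SPP1 lay on chromosome 4 from 88903644 to 88904563 in lists A, B, C, D and F, a width of 920 bp. In list E it began at the same base and ended at 88904542, 21 bp short of the others, with a width of 899 bp. In 5 of the 6 lists the interval therefore stopped exactly at the last base of the gene span. The score was 3100 in each of lists A to F, which is the value that chose the gene. The 3′ interval of BASP1 lay on chromosome 5 from 17275317 to 17276954 in every list, 1638 bp wide, and it too stopped at the last base of the span. Its score was likewise 3100 in each of the 6 lists. Both thus ended at the last base of the span, except SPP1 in list E. They were not compared with exons, because no hg19 annotation was used here.

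Such scores were uncommon, and their share differed from list to list. A score of 3100 or more was held by 11.8% of intervals in B, 10.0% in C and 3.74% in A. In the shorter lists the share was 1.57% (E), 1.47% (D) and 1.10% (F). At the level of joined regions, 23 of 20742 (0.111%) reached 3100 in all 6 lists, and the 3′ regions of SPP1 and BASP1 are 2 of these by choice. Counting ties at their middle rank, an interval at 3100 stood at score percentile 93.9 in list B, 94.8 in C, 98.0 in A, 99.2 in both D and E and 99.4 in F.

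**Figure D1:**
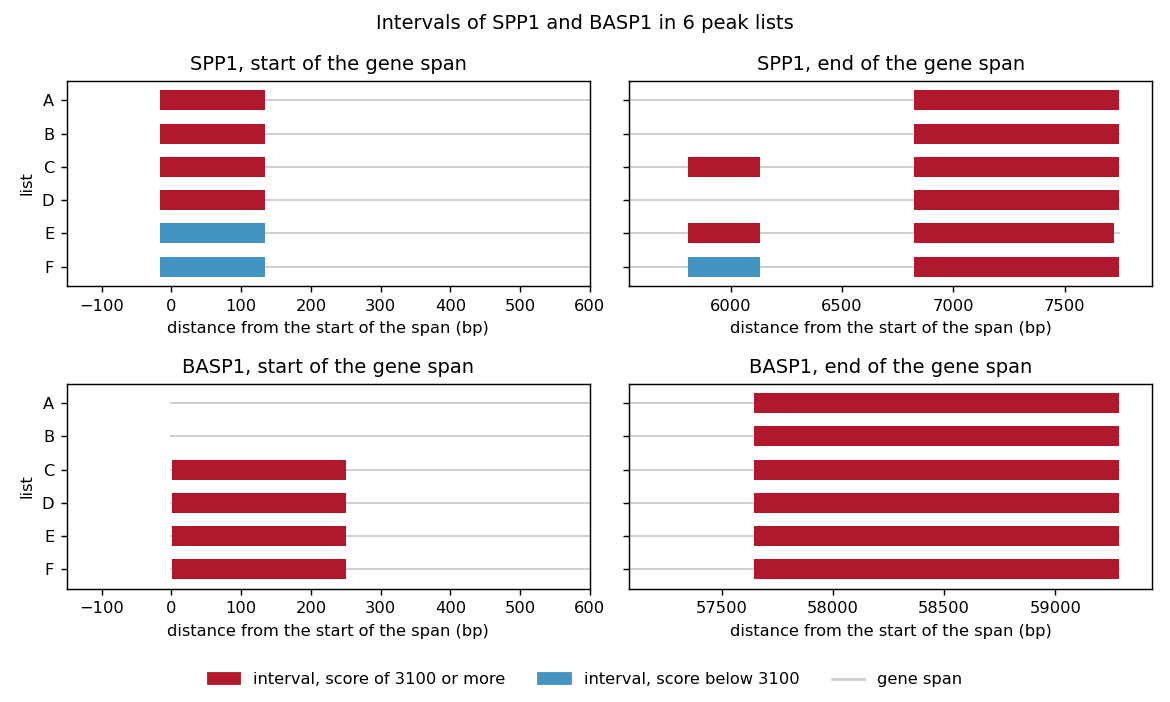
Intervals of SPP1 (top) and BASP1 (bottom) in lists A to F, drawn to scale within each panel as distance in bp from the start of the gene span, with the start of each gene on the left and its end on the right. Red bars score 3100 or more, blue bars score less and the grey line is the span. The 3′ bars are present in all rows, the SPP1 internal bar in 3 rows and the BASP1 5′ bar in 4.

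Both genes also held intervals away from the 3′ end, SPP1 in every list and BASP1 in 4. SPP1 held an interval at the 5′ end, on chromosome 4 from 88896802 to 88896952, in all 6 lists. It was 151 bp wide, had the same boundaries in each list and began 17 bp before the span. Its score was 3100 in A, B, C and D, 2784.17 in E and 827.29 in F. Ranked within their own lists, the latter intervals stood at score percentiles 98.1 in E and 91.0 in F. Of all 10 intervals in the 5′ regions of both genes, these were the ones below 3100.

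BASP1 held a 5′ interval in 4 lists. It ran on chromosome 5 from 17217670 to 17217919, 250 bp with the same boundaries in C, D, E and F, and its score was 3100 in each of them. Lists A and B had no interval there, although B was the longest list of all. Between the 5′ and the 3′ region of BASP1 lay 57397 bp without an interval in any list, against 6691 bp between those of SPP1, of which SPP1 filled 324 bp in some lists.

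That internal region of SPP1 lay on chromosome 4 from 88902627 to 88902950, 693 bp before the 3′ region. It occurred in C with a score of 3100, in E with 3100 and in F with 2426.48, with the same boundaries in each. Lists A, B and D lacked it. Only C, E and F therefore showed the full set of 3 SPP1 regions, and lists A and B showed just the 5′ and 3′ ends of SPP1 and the 3′ end of BASP1. The lists that lacked regions included 2 of the 3 longest, so the order of list length is not the order of completeness for these genes. Since depth is unknown, a missing interval says only that none was listed there.

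**Figure D2:**
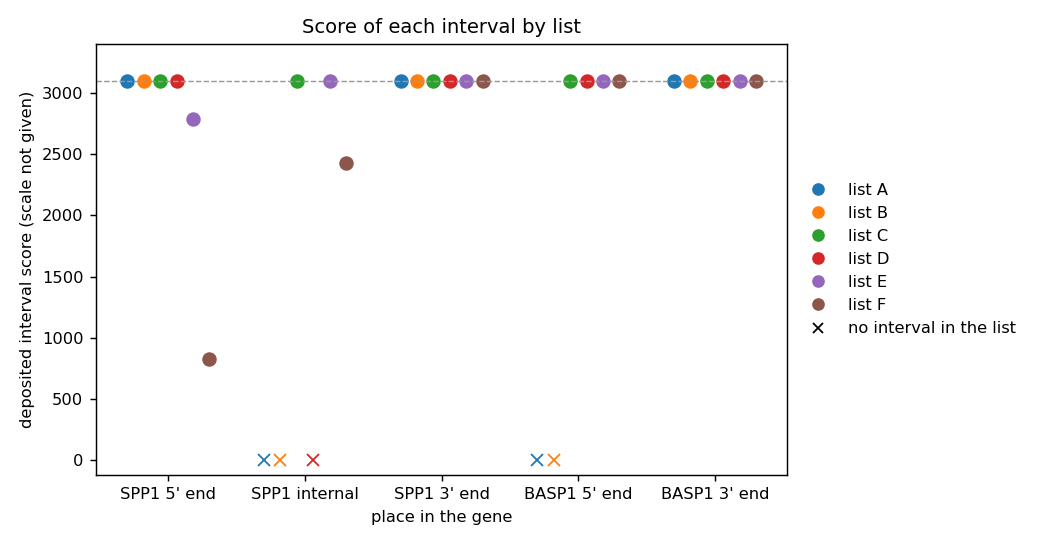
Deposited score of each member interval in each list, by place in the gene. Circles are scores, crosses at the foot of the axis mark lists with no interval and carry no score, and the dashed line is 3100. All circles of both 3′ ends and of the BASP1 5′ end lie at 3100, whereas the SPP1 5′ end has circles at 2784.17 for E and 827.29 for F.

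Altogether SPP1 held 15 intervals, of which 12 reached 3100, and BASP1 held 10, of which 10 reached it. The 6 intervals at the 3′ end of each gene all reached it, as the choice required of at least 1 interval per gene in each list. Of the rest, 4 of 6 reached it at the SPP1 5′ end, 2 of 3 in the internal SPP1 region and 4 of 4 at the BASP1 5′ end. Over all intervals of a list the share was 1.10% (F) to 11.8% (B). Counted by list, SPP1 held 2 in each of A, B and D and 3 in each of C, E and F. BASP1 held 1 in each of A and B and 2 in each of the other lists. The rule looked for a score of 3100 or more anywhere in the span, so the scores of the 5′ and internal intervals were among those it screened. They are given only as a description, and the shares over all intervals are no test of them.

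The sequence covered differed more between the genes relative to their spans than in absolute terms. The intervals of SPP1 covered 1071 bp in A, B and D, 1374 bp in E and 1395 bp in C and F. Without the 17 bp that lay before the span, this was 13.6% to 17.8% of a span of 7745 bp. The intervals of BASP1 covered 1638 bp in A and B and 1888 bp in C, D, E and F. This was 2.76% to 3.18% of a span of 59286 bp, most of which lay between its 2 regions. The spans are genomic and include introns, so these are not shares of the mRNA. How much of each mRNA was covered was not measured.

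Width was not used in choosing the genes. Against all intervals of the same list, the 3′ interval of BASP1 stood between width percentiles 76.6 (D) and 86.4 (B) and that of SPP1 between 53.5 (E) and 69.8 (A). Set only against intervals that also scored 3100 or more, BASP1 stood between percentiles 55.5 (C) and 67.6 (F) and SPP1 between 31.0 (C) and 49.1 (F). Among such intervals the 3′ interval of SPP1 was thus of about middle width or less, and that of BASP1 somewhat wider than the middle. The 23 regions at 3100 or more in all lists ran from 124 bp to 2934 bp with a median of 779 bp. Of these, 12 were narrower than the 3′ region of SPP1 and 17 were narrower than that of BASP1.

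The 5′ intervals were narrow for their scores. Where it scored 3100, the 151 bp interval of SPP1 stood at width percentile 7.0 of intervals at 3100 or more in list A, 1.9 in B, 2.2 in C and 3.5 in D. The 250 bp interval of BASP1 stood at percentile 5.6 in C, 12.0 in both D and E and 13.9 in F. The internal SPP1 interval stood at percentile 7.6 in C and 17.6 in E.

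**Figure D3:**
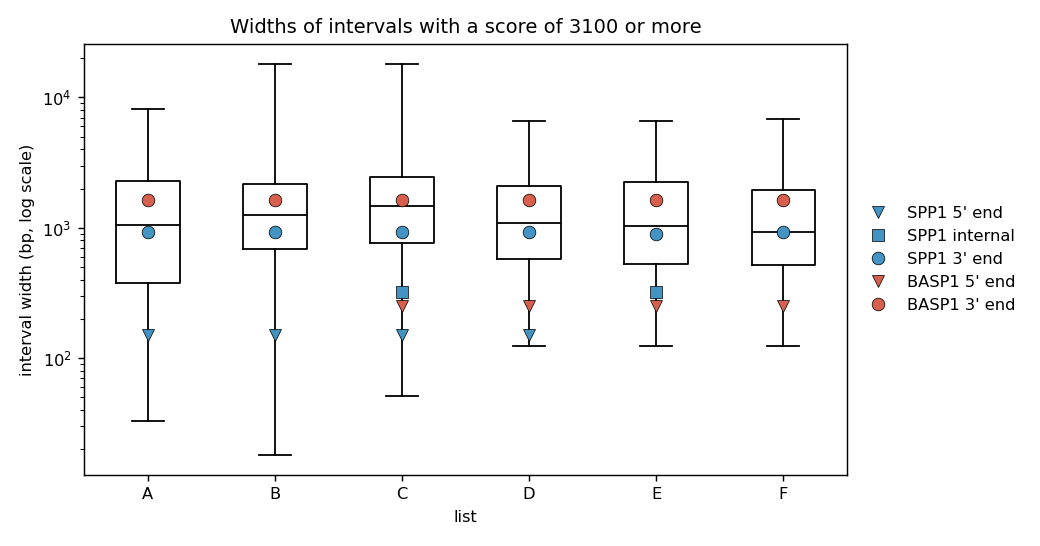
Widths on a log scale of all intervals scoring 3100 or more in each list, with boxes from the lower to the upper quartile, a line at the median and whiskers to the extremes. Markers show the member intervals at 3100 or more. The 3′ intervals (circles) lie within the boxes in all lists, and the 5′ (triangles) and internal (squares) intervals lie below them.

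Boundaries recurred from list to list. The lists are named in the form of the same caller and share a build, so their boundaries may not be independent. How far this set the boundaries was not tested. Of the 5 member regions, 4 had a single pair of boundaries in the lists that held them, and the 3′ region of SPP1 had 2 pairs because of the shorter end in E. Over the series, 1676 regions had exactly 1 interval in each of the 6 lists, and 981 of them (58.5%) had the same boundaries throughout. Only the 3 member regions held by all lists can be set beside this share. Of these, the SPP1 5′ and BASP1 3′ regions had the same boundaries throughout and the SPP1 3′ region did not. Another 133 (7.94%) had 2 pairs, as the SPP1 3′ region did. Among the 23 regions at 3100 or more in all lists, 17 had the same boundaries throughout.

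The sets of lists that held the incomplete regions were rare. The set of C, D, E and F, which held the 5′ region of BASP1, held 18 regions (0.0868% of all). Each region was placed by the lowest of its within-list score percentiles. This was 94.8 for BASP1, and the other 17 had a median of 17.7 and a maximum of 94.8, so 1 other region equalled BASP1 to this precision. However, 94.8 is where any score of 3100 stands in list C, so the tie does not mean like scores. The lowest score of that other region was 2259.96, against 3100 for BASP1. The set of C, E and F, which held the internal region of SPP1, held 16 regions (0.0771%). The lowest percentile of the internal SPP1 region was 94.8, again from its score of 3100 in list C. The other 15 had a median of 14.1 and a maximum of 69.7.

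Conversely, 27 regions of the series reached 3100 in C, D, E and F. The 5′ region of BASP1 was the only one of these 27 absent from both A and B. When C was not required, 30 regions reached 3100 in D, E and F, and it was again the only one absent from both A and B. These 2 counts were made after the values of BASP1 had been seen. They also use the score that chose the gene and the set of lists already seen for this region, so they are a description only.

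**Figure D4:**
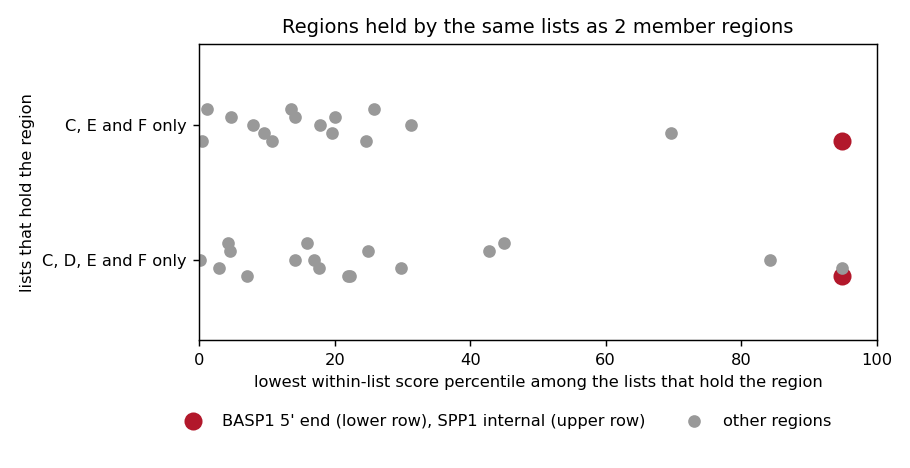
Regions held by exactly the same lists as the BASP1 5′ region (lower row) and the SPP1 internal region (upper row), each placed by the lowest of its within-list score percentiles over the lists holding it. Vertical scatter within a row only separates the points. Both member regions (red) lie at 94.8, which is where a score of 3100 stands in list C. The other regions (grey) reach at most 94.8 in the lower row and 69.7 in the upper. The genes of the red points were chosen by score, so their high places are a description only.

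The regions most like each 3′ region in covered length were sought among the other 22 regions at 3100 or more in all lists. Likeness was the sum over the 6 lists of the absolute log2 ratio of covered lengths, where 0 means equal lengths in every list. For SPP1 the nearest region, with a sum of 0.17, ran from 79801034 to 79801968 on the minus strand of chromosome 17. It was followed by chromosome 10 from 120801506 to 120802284 (minus, 1.41) and chromosome 7 from 148700154 to 148701301 (minus, 1.95). For BASP1 the nearest, with a sum of 0.95, lay on chromosome 17, also on the minus strand, from 76967320 to 76968786. The next were chromosome 11 from 57075869 to 57078030 (minus, 2.40) and chromosome 15 from 55650296 to 55653142 (minus, 2.64). Their genes were not analysed here.

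Because both genes held 5′ intervals, the opening 50 transcribed bases of each, as RefSeq annotates them on GRCh38.p14, were searched. These windows were not placed on the hg19 intervals and are not shown to be their sequence. GGAC, a frequent sequence context of m6A with the marked base at the A, was looked for on both strands. It occurred once on the transcript strand of SPP1 and not on the other strand. The stretch of 30 bases around it, with GGAC in capitals, lies at chr4:87975734-87975763 on the plus strand of GRCh38.p14.
SPP1: cacagcatcgtcgGGACcagactcgtctca
The motif is common, being present on the transcript strand in 18.9% of 35116 RefSeq start windows of 50 bases and on the other strand in 17.6%. In the BASP1 window it was found on neither strand. The RefSeq gene is 47 bp shorter than the hg19 span of SPP1 and 726 bp longer than that of BASP1, so the BASP1 window may lie outside its 5′ interval. A match describes the sequence and does not show a methylated site.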

How the data were processed

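The members and the lists of further genes were chosen with earlier results of these data known. Each peak list has 6 columns without a header: chromosome, start, end, name, score and strand. The deposited score is a value per interval made by the authors, on a scale not given in the sources used here. Intervals are named as the MACS caller names its peaks. The submitters' processing notes list HISAT2 2.0.4 and the build hg19. The caller's settings are not given. The record ties each list to 1 library, in conflict with the deposited names, and which IP and input were used for the calls is not given. Positions are written 1-based. Intervals sharing at least 1 bp on the same strand were joined into regions. Percentiles were taken within a list, with ties at their middle rank. The rule for named items was SPP1 and BASP1 with every interval, and per gene the 3 regions at 3100 or more nearest in covered length. Receptors, relatives and partners of both proteins (15 genes for SPP1, 10 for BASP1) had been listed for description, but this needed hg19 spans, so they were not analysed here. No test was made. Tables were handled with pandas 2.3.3 and numpy 2.4.6 under Python 3.11.15, and figures were drawn with matplotlib 3.10.9. The joining code was checked on 6 simulated lists on 1 chromosome and 1 strand, and the ranking and span code on small known cases. All 5 of 5 checks passed. Separation of strands was not checked.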

Additional observations from a re-analysis of the deposited data

How the results depend on the processing

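Ignoring strand, keeping only scores at or above the pooled median (260.435) and widening the spans by 1 kb left the interval counts of both genes at 15 and 10. The score minimum left the summed covered lengths at 7377 bp and 10828 bp. These outcomes were fixed by the members and are no sign of stability. The lowest member score was 827.29, no interval lay on the opposite strand and the nearest other interval was 24235 bp away. With ties at their lowest rank and scores above 3100 set to 3100, the median score percentile of both 3′ intervals moved from 98.6 to 97.4, a shift fixed by how ties are counted. Counting only bases covered in all lists, or leaving out each list in turn, left 2 regions in SPP1 and 1 in BASP1 held by all lists. For leaving out a list this was fixed, since the incomplete regions lacked 2 (BASP1 5′) and 3 (SPP1 internal) lists. With each list left out in turn, the 23 regions at 3100 or more in all lists became 23 to 32. That is a looser requirement, so a higher count is no sign of stability. No paired analysis was possible because no list was assigned to an arm, so an effect of rapamycin was not tested. Depth is unknown, so an interval missing from a list may be undetected or absent.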

Other observations

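No interval lay on the opposite strand within either span in any list. Within 1 Mb of SPP1 the lists held 3 to 14 other intervals, none at 3100 or more, with highest scores of 621.08 to 2665.58. Within 1 Mb of BASP1 they held 5 to 12, of which 1 in A, 4 in B, 4 in C and 1 in E reached 3100. How usual such spacing is was not measured. Upstream of SPP1 the nearest interval of either strand was 517029 bp (B) to 860350 bp (E) away. In the RefSeq order of protein-coding genes the stretch before SPP1 begins with MEPE, IBSP, DMP1 and DSPP, relatives of osteopontin in bone and tooth matrix, and PKD2 follows SPP1. Downstream, a plus-strand interval began after 24235 bp in A, B and C, with scores of 178.37, 486.33 and 135.59. In D, E and F the next interval was 712659 bp, 278840 bp and 540085 bp away, on the minus strand.

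Downstream of BASP1 the next interval lay 2561913 bp away in C, 7210350 bp in A, 7210359 bp in B and 14951826 bp to 15308751 bp in D, E and F. Upstream, the nearest was 281284 bp to 514402 bp away and on the minus strand in all 6 lists. RefSeq also names an antisense gene, BASP1-AS1, which was not placed on the lists, and whether the strand given for an interval comes from the reads is not stated. All listed intervals in the BASP1 span were on the plus strand.

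The number in each peak name rose along each chromosome for 100% of neighbouring intervals, and no name was used more than once in a list. The deposited lists skip numbers. Between the 5′ and 3′ intervals of SPP1, list A skipped 0 numbers, and B and D skipped 1 each. In C, E and F no number was skipped between the internal and 3′ intervals, whereas 1, 1 and 2 were skipped before the internal one. Between the 5′ and 3′ intervals of BASP1, C skipped 0 numbers, D and E skipped 6 each and F skipped 4. In A and B, 21 and 27 numbers were skipped between the preceding interval and the 3′ interval of BASP1. What the skipped numbers stood for is not known.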
